A study of Mus musculus with 22 samples.

Results

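The 5xFAD transgenes alone were compared with wild type (WT) in mouse cortex at 6 months of age, with 3 libraries of 5xFAD mice against 3 of WT mice, out of 22 libraries in the series. The measure was the Sd score, a ratio per gene and library read here as a score of splicing deficiency that grows with the unspliced share of a gene's signal. All 15705 genes of the 6-month table were compared, and the 9640 genes with a mean score of 0.02 or more over the 12 libraries of that age were also read on their own. The score is given to 3 decimals, so 1 step of 0.001 is a large part of the value of the other 6065 genes (38.6%). By its title, the series asks how a defect of the U1 small nuclear ribonucleoprotein (snRNP), which recognises 5′ splice sites, acts in Alzheimer disease.

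The WT and 5xFAD mice were littermates from crosses of N40K-Tg +/- with FAD +/- mice. By their genotype labels, neither group carried the N40K transgene. The 5xFAD mouse carries human transgenes with familial Alzheimer disease mutations under the neuronal Thy1 promoter and deposits amyloid plaques in the cortex. The same crosses gave 3 N40K libraries, from mice that express the N-terminal N40K piece of the snRNP protein U1-70K, and 3 dTg libraries, from mice with the N40K and the 5xFAD transgenes. The difference between dTg and N40K mice measures the 5xFAD transgenes on a second background, and its scores come from libraries other than those whose means the first comparison sets against each other. The spread behind each p-value and the filter on the mean score come from all 12 libraries, so the p-values of the 2 comparisons are not independent. Sex, strain and any pooling of animals are not given in the sources used here, and nothing says whether each library came from its own mouse, so the p-values measure the spread between these libraries.

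Amyloid plaques are surrounded by microglia, the resident macrophages of the brain, which take up amyloid, enlarge their lysosomes and change which genes they express. Type I interferon signalling is a further known part of the response to amyloid, and acts through the factor ISGF3, which binds interferon-stimulated response elements in promoters. Before an mRNA leaves the nucleus its introns are removed, and a transcript that still holds an intron counts as unspliced signal. In whole cortex the score of a gene averages over all cells that express it, so another mix of those cells and another extent of splicing within them cannot be told apart.

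Interferon-regulated genes were among those with the lowest 5xFAD scores relative to WT, so the 250 bases before the start of 3 of them are shown, from RefSeq on GRCm38.p6. Isg15 encodes a ubiquitin-like protein, Gbp2 a guanylate-binding protein, and Trim30a a protein of the tripartite motif family. Capitals mark the core of the response element, searched on both strands as GAAA, any 2 bases and GAAA again, and overlapping matches run together. The 3 were chosen after their scores had been seen and only from windows that hold a match, so their matches were fixed in advance. Of the 6 interferon-response genes lower at an unadjusted p under 0.05 (limma), 3 had a promoter sequence and 2 of these held a match. Trim30a is not in that list.
Isg15, chr4:156200819-156201068, minus strand: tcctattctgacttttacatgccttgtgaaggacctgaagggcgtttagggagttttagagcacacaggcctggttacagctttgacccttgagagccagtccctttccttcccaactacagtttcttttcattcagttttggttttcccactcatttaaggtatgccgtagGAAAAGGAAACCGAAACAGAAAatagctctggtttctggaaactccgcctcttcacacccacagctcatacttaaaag
Gbp2, chr3:142620413-142620662, plus strand: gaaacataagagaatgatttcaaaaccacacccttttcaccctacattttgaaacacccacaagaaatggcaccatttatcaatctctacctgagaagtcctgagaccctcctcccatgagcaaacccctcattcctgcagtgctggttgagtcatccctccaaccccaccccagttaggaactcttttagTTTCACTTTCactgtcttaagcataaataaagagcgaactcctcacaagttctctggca
Trim30a, chr7:104465194-104465443, minus strand: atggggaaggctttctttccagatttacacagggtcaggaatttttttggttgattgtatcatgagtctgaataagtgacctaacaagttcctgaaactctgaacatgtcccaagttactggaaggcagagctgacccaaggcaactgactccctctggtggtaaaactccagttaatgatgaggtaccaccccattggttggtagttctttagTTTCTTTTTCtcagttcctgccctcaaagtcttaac
The window of Isg15 holds 3 matches, and those of Gbp2 and Trim30a hold 1 each. A match stood in 936 of 27025 promoters of this length (3.46%), in 318 of 10545 promoters of genes with a score (3.02%) and in 5 of 16 promoters of the interferon-response genes described below (31.2%). Among the genes that stood lower with the 5xFAD transgenes on both backgrounds, also described below, it stood in 1 of 27 promoters (3.7%), that of Trim30a. A second motif, GAGGAAGT of the factor PU.1, was also searched. It stood in 284 of 10545 promoters of genes with a score (2.69%) and in 1 of the same 27 (3.7%). It stood in 0 of 16 interferon-response promoters and in 1 of 24 (4.17%) in the list of microglia around plaques. A match of either motif describes the letters in the window and does not show binding.

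Over all genes together no shift between the groups was detected. The median score of a library was 0.029, 0.029 and 0.03 in WT and 0.031, 0.03 and 0.029 in 5xFAD mice, so the groups overlapped. The difference of the log2 medians was 0.03 (exact permutation test, two-sided p = 0.7, where 3 against 3 libraries cannot go below 0.1). On the log2(score + 0.002) scale used for all changes below, the median change over all genes was 0. Libraries correlated across genes with r from 0.985 to 0.99 within groups (6 pairs) and from 0.987 to 0.99 between WT and 5xFAD (9 pairs). Among genes with a score of 0.02 or more the median absolute change was 0.0857 and the median standard error (SE) 0.136.

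Of 15705 genes 3 passed the test (limma, Benjamini-Hochberg adjusted p under 0.05), a share of 0.0191%, and each moved by 1 step of the last decimal. Atp2b2 (ENSMUSG00000030302), a calcium pump of the neuronal plasma membrane, rose from 0.001 in all 3 WT to 0.002 in all 3 5xFAD libraries (1.33-fold, adjusted p = 0.000872). Kcnab1 (ENSMUSG00000027827), an auxiliary subunit of voltage-gated potassium channels, had the same values, 0.001 in each WT and 0.002 in each 5xFAD library (1.33-fold, adjusted p = 0.000872). Cst3, which encodes the protease inhibitor cystatin C, fell from 0.003 in all WT to 0.002 in all 5xFAD libraries (0.8-fold, adjusted p = 0.00538). None of the 3 genes varied within any of the 4 groups at this rounding, so their fitted spread came from the prior alone. In total 787 genes had no spread within WT and within 5xFAD, and 741 of these had equal scores in both groups. The N40K and dTg libraries stood at 0.002 throughout for Atp2b2 and Kcnab1, while Cst3 again stood at 0.003 in each N40K and 0.002 in each dTg library. With a pseudocount of 0.01, with libraries centred on their medians, or with genes of mean score 0.02 or more alone, no gene passed (limma). Leaving out 1 of the 6 libraries gave from 4 genes (without WT replicate 1) to 12 (without WT replicate 3), with 8 without WT replicate 2 and 7, 11 and 5 without 5xFAD replicates 1, 2 and 3. With the WT and 5xFAD libraries alone in the fit 27 passed, all without spread in either group and under 0.02, and without N40K replicate 1 and dTg replicate 2 it was 10.

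No gene with a mean score of 0.02 or more passed (limma, 0 of 9640, smallest adjusted p = 0.813). At an unadjusted p under 0.05, 215 of these genes were higher (2.23%) and 212 lower (2.2%) in 5xFAD. The 3 libraries of each group did not overlap in 364 genes that were higher (3.78%) and 392 that were lower (4.07%). The genes described from here on are therefore given as values and not as calls. They are the non-overlapping genes with the smallest unadjusted p, 7 lower and 6 higher, and members of gene lists, of which those with the smallest p in a list were named by rule and others after their values were seen. Without 5xFAD replicate 1, 2 of the 9640 genes passed, Cd180 and Ang. Ang, which encodes the ribonuclease angiogenin, had 0.161, 0.148 and 0.162 in WT and 0.162, 0.074 and 0.080 in 5xFAD libraries (−0.66 with all libraries).

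The 7 genes with lower scores are given first. Usp18, a protease that removes Isg15 from proteins and dampens interferon signalling, had scores of 0.056, 0.037 and 0.053 in WT and 0.029, 0.021 and 0.023 in 5xFAD libraries. Its groups were apart, with a change of −0.93 (SE 0.15, 0.523-fold, limma adjusted p = 0.478). Cd68, a lysosomal glycoprotein of microglia and macrophages, had 0.261, 0.293 and 0.245 in WT against 0.212, 0.174 and 0.203 in 5xFAD libraries (−0.44, adjusted p = 0.544). Every 5xFAD library lay below the lowest WT library. Cd180, a Toll-like receptor homologue of immune cells, had 0.476, 0.542 and 0.475 in WT and 0.351, 0.174 and 0.236 in 5xFAD libraries (−1.02, adjusted p = 0.554). Here 5xFAD replicate 1 stood well above the other 2 of its group, and without it the change was −1.28 and passed (adjusted p = 0.0309). Usp18 passed without WT replicate 2, its lowest WT library (−1.11, adjusted p = 0.0186).

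Parp9, an interferon-induced ADP-ribosyltransferase family member, had 0.060, 0.054 and 0.045 in WT and 0.035, 0.034 and 0.034 in 5xFAD libraries (−0.59, adjusted p = 0.545). Rasal3, a Ras GTPase-activating protein of blood and immune cells, had 0.189, 0.182 and 0.189 against 0.131, 0.132 and 0.145 (−0.45, adjusted p = 0.554). In Parp9 and Rasal3 every 5xFAD library lay below every WT library. H2-T24, a class Ib gene of the major histocompatibility complex (MHC), had the highest scores of the set, at 1.467, 1.527 and 1.428 in WT and 1.274, 1.210 and 1.216 in 5xFAD libraries (−0.26). It belongs to a multigene family whose reads can be shared between copies, so its score is uncertain. Dll1, a Notch ligand, had 0.154, 0.139 and 0.149 in WT and 0.126, 0.125 and 0.115 in 5xFAD libraries (−0.27).

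**Figure D1:**
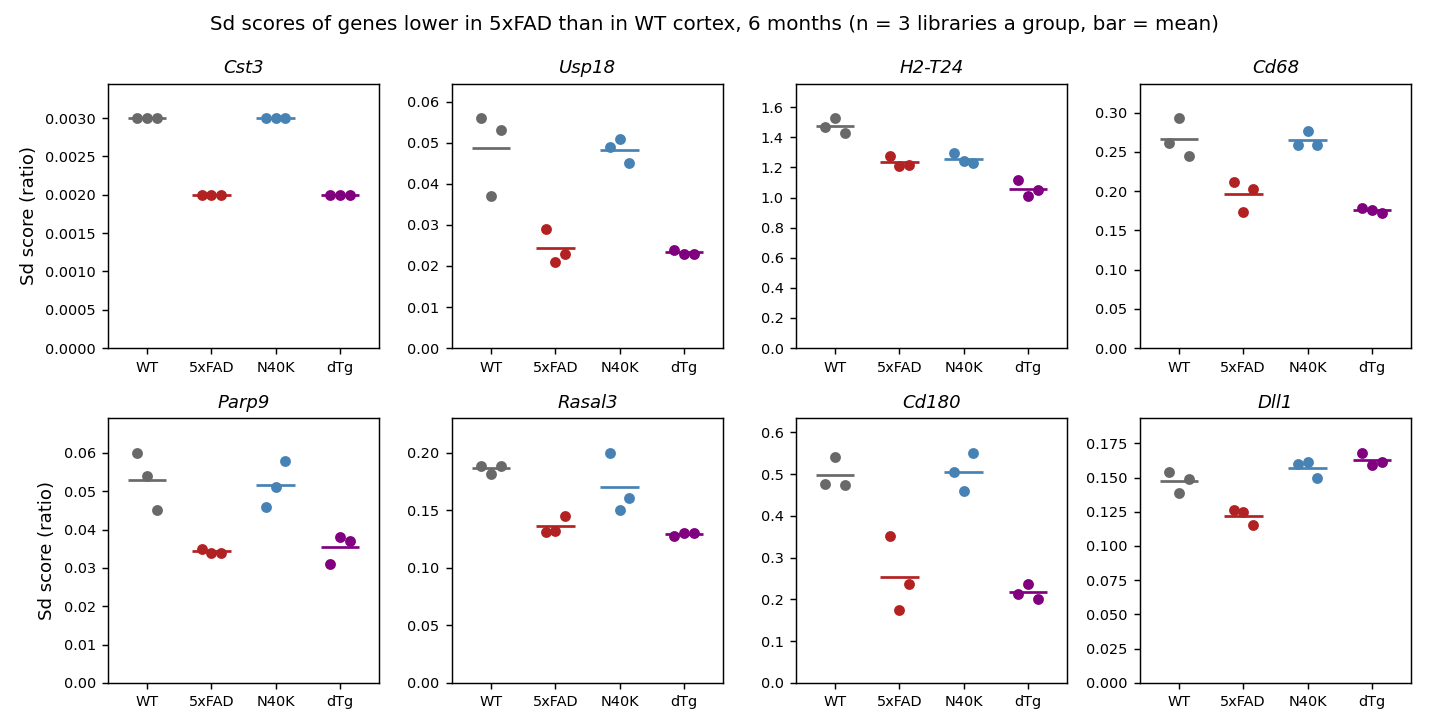
Sd score (ratio, linear axis from 0) of Cst3 and the 7 genes with lower scores, in each of 3 WT, 5xFAD, N40K and dTg libraries; points are libraries and bars are group means. Scores of the dTg libraries lie below those of the N40K libraries in each panel other than Dll1, where dTg stands at 0.168, 0.159 and 0.161.

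The plot of these lower genes also holds the second background. Usp18 had 0.049, 0.051 and 0.045 in N40K and 0.024, 0.023 and 0.023 in dTg libraries, a change of −0.99. Cd68 changed by −0.59, Cd180 by −1.21, Parp9 by −0.52, Rasal3 by −0.38 and H2-T24 by −0.25 between N40K and dTg libraries, without overlap in any of these 5 genes. Dll1 changed by 0.05 there, with overlapping libraries (interaction of both transgenes, limma unadjusted p = 0.00262, adjusted p = 1). Of the 7 genes, 6 were thus lower in 5xFAD than in WT and lower in dTg than in N40K libraries. Of the 9640 genes with a score of 0.02 or more, 337 were lower without overlap between N40K and dTg libraries. So were 53 of the 212 genes lower in 5xFAD at an unadjusted p under 0.05 (limma). The 7 were ranked by a p whose spread includes the N40K and dTg libraries, so the second background is no independent check of them.

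The 6 genes with higher scores follow. Sat2, of the spermidine/spermine N1-acetyltransferase family, had 0.451, 0.431 and 0.446 in WT and 0.523, 0.502 and 0.520 in 5xFAD libraries (0.22, limma adjusted p = 0.478). Npy5r, a neuropeptide Y receptor, had 0.082, 0.078 and 0.081 against 0.149, 0.111 and 0.175 (0.81, adjusted p = 0.545). Svopl, a transporter-like gene, had 0.623, 0.237 and 0.162 in WT and 3.387, 2.544 and 1.288 in 5xFAD libraries (2.94, adjusted p = 0.545). Svopl varied several-fold within each group. Sco1, a copper chaperone of cytochrome c oxidase, had 0.019, 0.020 and 0.026 against 0.032, 0.033 and 0.035 (0.59, adjusted p = 0.682). Rcn1, a calcium-binding protein of the endoplasmic reticulum, changed by 0.46, and Rpgrip1l, a protein of the ciliary transition zone, by 0.22.

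**Figure D2:**
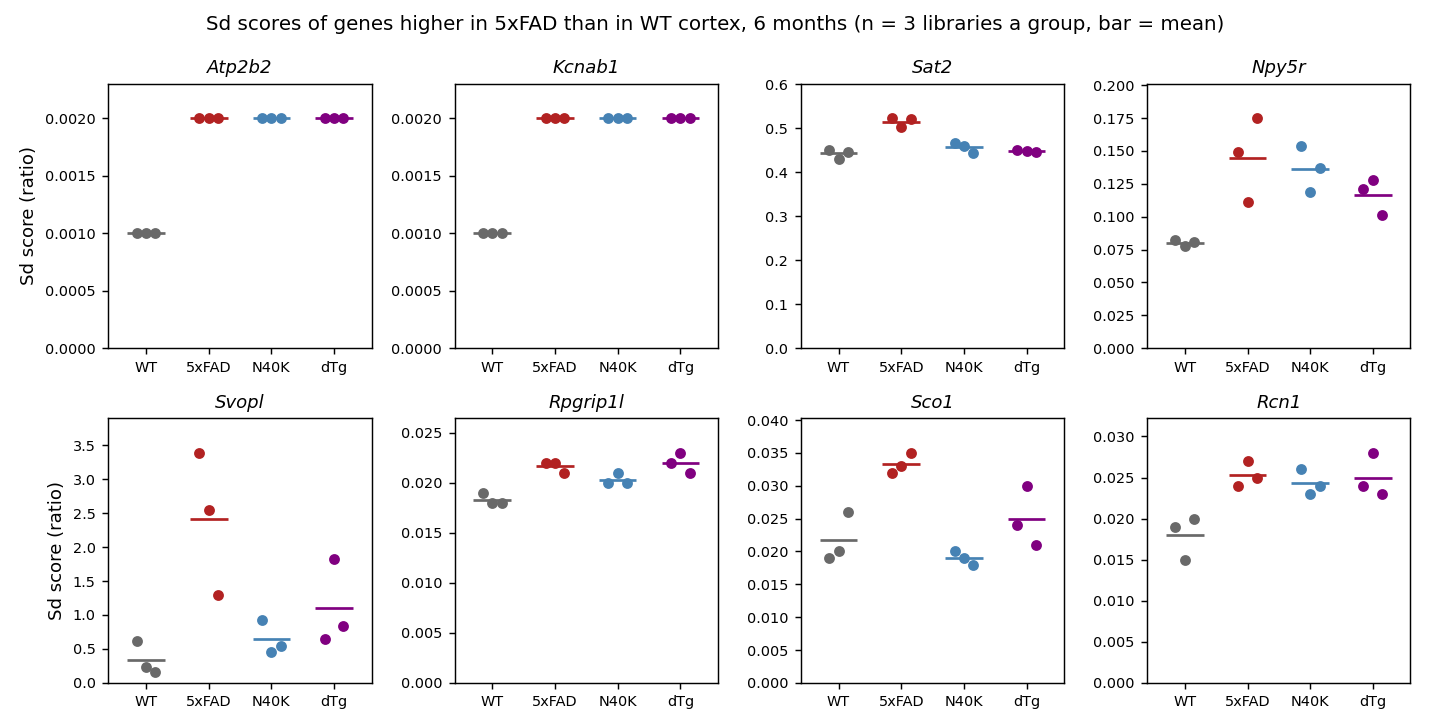
Sd score (ratio, linear axis from 0) of Atp2b2, Kcnab1 and the 6 genes with higher scores, in each of 3 WT, 5xFAD, N40K and dTg libraries; points are libraries and bars are group means. Sat2 stands from 0.502 to 0.523 in 5xFAD libraries and from 0.431 to 0.466 in the other groups.

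In the plot of these higher genes, Sco1 alone of the 6 was also separated between N40K and dTg libraries, at 0.020, 0.019 and 0.018 against 0.024, 0.030 and 0.021 (0.35). Of the 9640 genes with a score of 0.02 or more, 335 were higher without overlap there. So were 31 of the 215 genes higher in 5xFAD at an unadjusted p under 0.05 (limma). Sat2 changed by −0.03 there (interaction, limma unadjusted p = 0.000965, adjusted p = 1) and Npy5r by −0.22 (interaction, limma unadjusted p = 0.00131, adjusted p = 1). For Npy5r the N40K libraries, at 0.154, 0.119 and 0.137, already lay in the range of the 5xFAD libraries. Over all higher and lower genes with a score of 0.02 or more, the second background was read for its sign. Of the 215 higher genes, 138 (64.2%) were higher in dTg than in N40K libraries, against 49.4% of all 9640 genes. Of the 212 lower genes, 146 (68.9%) were lower there, against 50.4% of all. Counts of genes with a small p on both backgrounds have a limit, since the fit gives each gene 1 spread for all groups and a gene of small spread more easily reaches a small p in both.

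Genes that were separated on both backgrounds at an unadjusted p under 0.05 in each, in the same direction and with a score of 0.02 or more, numbered 59, of which 41 were lower and 18 higher. On the second background alone, 2.78% of the 9640 genes were lower and 2.59% higher at that p. Of the 41 lower genes 6 stand in any list, and 3 are predicted genes. The share of all genes that stand in a list or are predicted was not counted, so these counts have nothing to stand against. The genes named here were chosen after their values were seen, and no group of them was counted or tested. Tnfaip8l2, a regulator of immune signalling, had 0.161, 0.168 and 0.104 in WT and 0.074, 0.021 and 0.052 in 5xFAD libraries (−1.65, and −1.12 on the second background). Cxcl16, a chemokine, had 0.149, 0.162 and 0.191 against 0.134, 0.077 and 0.077 (−0.83 and −1.29). Trim30a, whose promoter is shown above, had 0.101, 0.092 and 0.127 against 0.074, 0.038 and 0.064 (−0.88 and −0.84). The same 41 held Dock8, a guanine nucleotide exchange factor of immune cells (−0.75 and −1.08), and Irf5, an interferon regulatory factor (−0.16 and −0.18).

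The 41 also held some genes with roles in the cell cycle, picked after their values were seen. No list of such genes was read, so their number has no share to stand against. Mki67, the proliferation marker Ki-67, had 0.245, 0.306 and 0.229 in WT and 0.176, 0.085 and 0.209 in 5xFAD libraries (−0.81 and −0.79 on the second background). Cdt1, which licenses DNA replication, had 0.387, 0.534 and 0.438 against 0.316, 0.346 and 0.283 (−0.51 and −0.51). Prc1, a regulator of cytokinesis, changed by −0.19 and −0.21. Genes with such roles stood among the 18 higher ones too, Kntc1, of the kinetochore (0.58 and 0.97), and Fam33a, of the spindle and kinetochore (0.22 and 0.21). The 18 held 5 predicted genes and no member of any list, again without a share of all genes to stand against. Gzmm, a granzyme of immune cells, was also among them (0.30 and 0.24). Hapln3, a hyaluronan and proteoglycan link protein, had 0.067, 0.089 and 0.082 in WT and 0.124, 0.119 and 0.136 in 5xFAD libraries (0.67 and 0.54). Prdm16, a transcriptional regulator, changed by 0.38 and 0.43, and Gpr133, an adhesion G protein-coupled receptor, by 0.39 and 0.49.

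Genes that microglia around plaques are known to raise form the first list. Of 36 genes listed, 27 had a score. At an unadjusted p under 0.05, 7 of the 27 were lower and none was higher, where 1.92% of all genes were lower and 2.47% higher, and none of the 27 passed the adjusted test (limma). The median change of the list was −0.19, against 0 over all genes, and 19 of the 27 means were lower. The list's median score was 0.014, 0.014 and 0.015 in the WT libraries and 0.012, 0.009 and 0.011 in the 5xFAD libraries. Between N40K and dTg libraries 9 of the 27 were lower and none higher at an unadjusted p under 0.05 (2.27% and 2.87% of all genes), with a median change of −0.20. In 5 members the libraries were apart and lower on both backgrounds, as they were in 65 of all 15705 genes. Taken singly, 2.92% of all genes were apart and lower on the first background and 2.6% on the second.

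The members of this list with the lowest p are proteins of the lysosome. Grn, which encodes progranulin, had 0.133, 0.130 and 0.137 in WT and 0.120, 0.112 and 0.117 in 5xFAD libraries (−0.19, limma unadjusted p = 0.00175, adjusted p = 0.682). On the second background Grn stood at 0.127, 0.137 and 0.129 against 0.113, 0.112 and 0.117 (−0.20). Gusb, the lysosomal beta-glucuronidase, had 0.048, 0.038 and 0.048 against 0.039, 0.027 and 0.023, with the highest 5xFAD library inside the WT range (−0.58). Ctsz, the protease cathepsin Z, had 0.014, 0.012 and 0.011 in WT and 0.010, 0.008 and 0.008 in 5xFAD libraries (−0.43). Ctsd, cathepsin D, changed by −0.10.

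Other genes of the plaque-associated microglial state overlapped between the groups. Trem2, the receptor through which microglia sense lipids and plaques, had 0.068, 0.089 and 0.103 in WT and 0.074, 0.067 and 0.072 in 5xFAD libraries (−0.26, limma adjusted p = 1). Apoe, the lipid carrier, stood at 0.092, 0.092 and 0.095 against 0.092, 0.090 and 0.090 (−0.04). In 18 of the 27 genes 5xFAD replicate 1 alone was the highest of the 3 5xFAD libraries, against 5278 of 15705 genes over the whole table. Its part in the list's values was measured by leaving it out: 12 of the 27 were then lower at an unadjusted p under 0.05, and the median change was −0.22. Without 5xFAD replicate 3 the median change was −0.0993, and 7 of the 27 were lower. With genes of score 0.02 or more alone, 3 of 12 were lower.

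**Figure D3:**
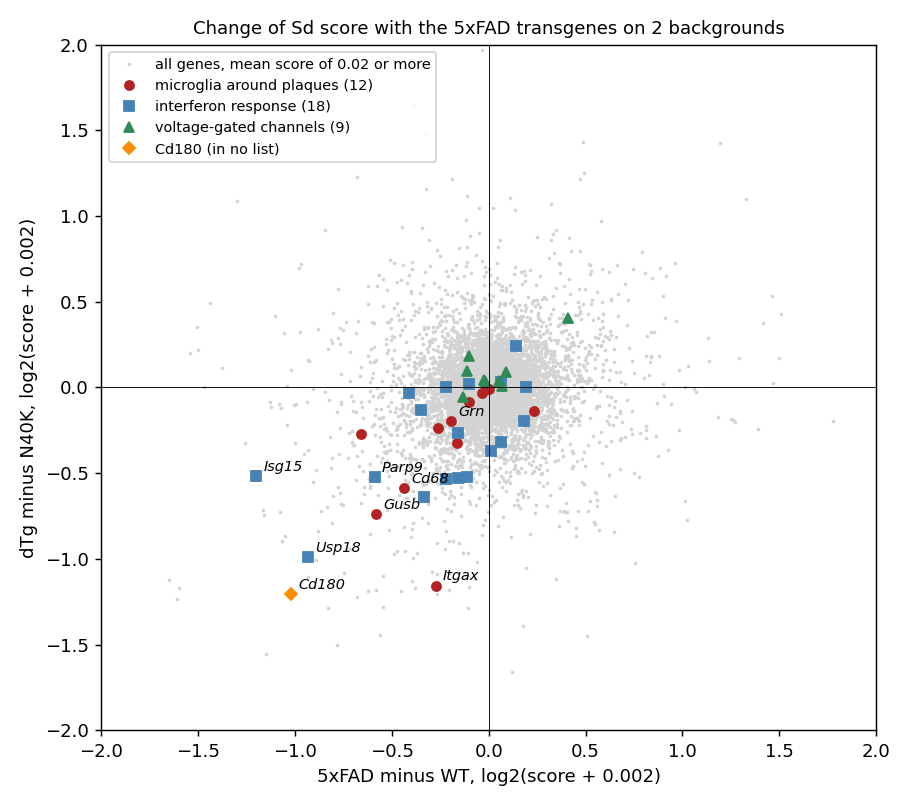
Change of the Sd score, log2(score + 0.002), between 5xFAD and WT libraries (horizontal) and between dTg and N40K libraries (vertical), for genes with a mean score of 0.02 or more; each point is a gene, 3 lists and Cd180 are coloured, and 4 genes lie outside the axes. Usp18 (−0.93 and −0.99), Cd68 (−0.44 and −0.59) and Cd180 (−1.02 and −1.21) lie in the lower left, where both changes are below 0, and Itgax (−0.27 and −1.16) is low mainly on the vertical axis.

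The plot of both backgrounds also marks the interferon-response genes, of which 24 of 35 listed had a score. Here 6 of the 24 were lower at an unadjusted p under 0.05 and none higher, 7 were lower without overlap (2.92% of all genes were), and the median change was −0.13. It was −0.0872 without 5xFAD replicate 3 and −0.218 without 5xFAD replicate 1. Between N40K and dTg libraries 8 were lower and none higher at an unadjusted p under 0.05 (2.27% and 2.87% of all genes), with a median of −0.23. Isg15 had 0.164, 0.138 and 0.205 in WT and 0.098, 0.064 and 0.058 in 5xFAD libraries (−1.20, limma adjusted p = 0.782). On the second background Isg15 overlapped, at 0.084, 0.093 and 0.202 in N40K and 0.067, 0.084 and 0.094 in dTg libraries (−0.52). Lgals3bp, a secreted glycoprotein, had 0.017, 0.019 and 0.029 against 0.011, 0.008 and 0.010 (0.501-fold, and a change of −1.07 between N40K and dTg).

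Gbp2 had 0.007 in each WT and 0.004, 0.003 and 0.003 in 5xFAD libraries (−0.76), while N40K and dTg libraries overlapped (−0.03; interaction, limma unadjusted p = 0.00598, adjusted p = 1). Dhx58, a helicase that senses RNA, had 0.231, 0.222 and 0.221 in WT against 0.209, 0.163 and 0.165 in 5xFAD libraries (−0.33 and −0.64 on the second background).

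Of 39 lysosomal genes 6 were lower and 1 higher at an unadjusted p under 0.05 (1.92% and 2.47% of all genes), with a median change of −0.0097. With genes of score 0.02 or more alone 2 were lower, and without 5xFAD replicate 1 the median was −0.0632. Gusb, Hexa, Ctsz and Ctsd, among the lower ones, also stand in the list of microglia around plaques. Man2b1, a lysosomal alpha-mannosidase, was lower as well, with 0.086, 0.098 and 0.092 in WT and 0.087, 0.067 and 0.075 in 5xFAD libraries (−0.27). Gla, the alpha-galactosidase A, went the other way, at 0.020, 0.016 and 0.022 against 0.029, 0.024 and 0.027 (0.43). Between N40K and dTg libraries Gla was lower, at 0.026, 0.028 and 0.024 against 0.014, 0.023 and 0.019 (−0.46; interaction, limma unadjusted p = 0.00362, adjusted p = 1).

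Of 18 complement and MHC genes 2 were lower and none higher at an unadjusted p under 0.05 (1.92% and 2.47% of all genes), with a median of −0.10. Without WT replicate 3 or without 5xFAD replicate 3, 1 was lower, and the median was −0.192 without 5xFAD replicate 1 and −0.0647 without 5xFAD replicate 2. C4a, a gene of complement component 4, had 0.277, 0.285 and 0.289 in WT and 0.212, 0.225 and 0.237 in 5xFAD libraries (−0.34, limma adjusted p = 0.682). Its near-identical neighbour C4b changed by −0.07, and reads of the pair could be split between them. Tapbp, which loads peptides onto MHC class I, changed by −0.41 and by −0.02 on the second background. Of 17 homeostatic microglial genes 1 was lower and 1 higher, with a median of −0.04. The higher one was Mertk, a phagocytic receptor, at 0.016, 0.015 and 0.016 in WT and 0.019, 0.020 and 0.021 in 5xFAD libraries (0.32), and at 0.017, 0.014 and 0.016 in N40K against 0.019, 0.020 and 0.020 in dTg libraries (0.30). Of the 17 means 10 were lower and 6 higher. Among defining markers, Aif1 changed by −0.20, P2ry12 by −0.17 and Csf1r by −0.07, each with p above 0.05 (limma). Sall1, named from this list by the same rule as Aif1, went the other way, by 0.10 and by 0.22 on the second background.

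**Figure D4:**
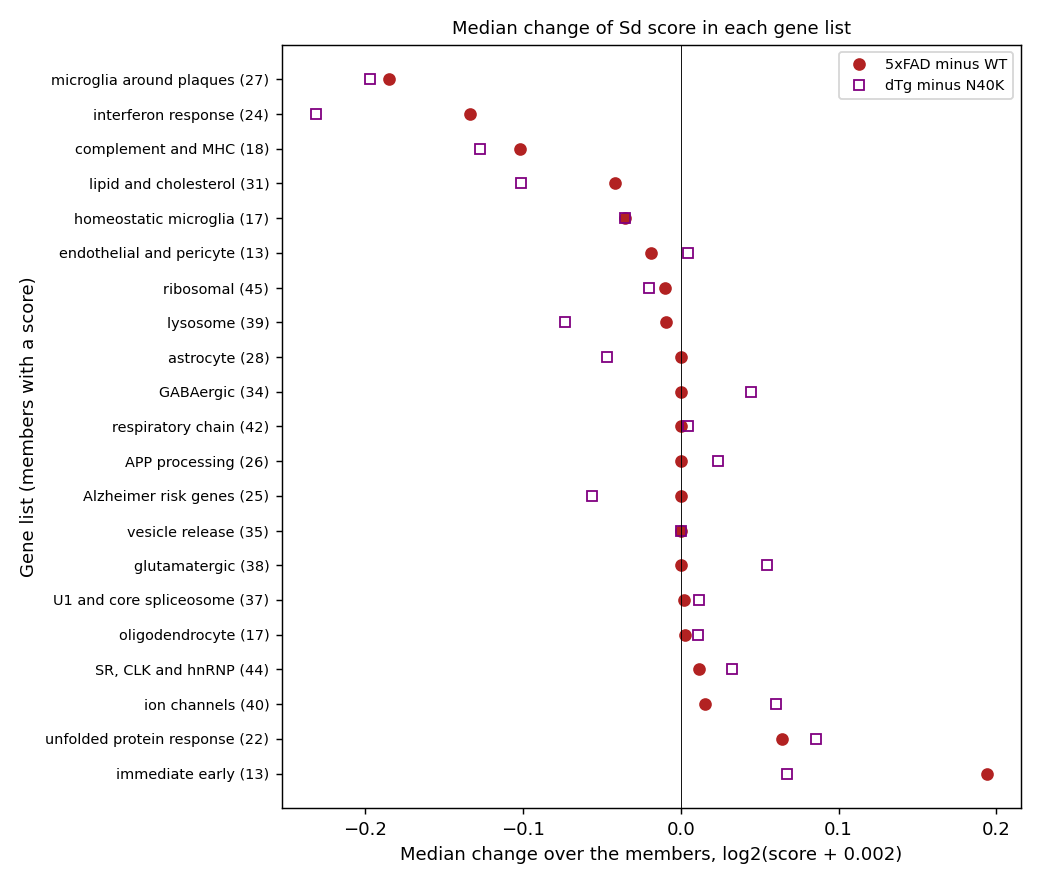
Median change of the Sd score over the members of each gene list, log2(score + 0.002), between 5xFAD and WT (filled circles) and between dTg and N40K libraries (open squares), with the number of members that have a score in brackets. The lists of microglia around plaques (−0.19 and −0.20), interferon response (−0.13 and −0.23) and complement and MHC (−0.10 and −0.13) stand lowest, and the immediate early genes highest for 5xFAD minus WT (0.19).

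The plot of list medians also holds the lists of other cell types. Counts in these and the later lists are at an unadjusted p under 0.05 (limma), where 1.92% of all genes were lower and 2.47% higher. A count of 1 in such a list says little about the list. Of 28 astrocyte genes 1 was lower and 1 higher, with a median of 0. Sox9, a transcription factor of astrocytes and progenitors, had 0.023, 0.028 and 0.023 in WT and 0.050, 0.042 and 0.048 in 5xFAD libraries (0.87, limma adjusted p = 0.682). On the second background Sox9 overlapped, at 0.016, 0.026 and 0.030 against 0.027, 0.021 and 0.018 (−0.09). Gfap, the intermediate filament of reactive astrocytes, changed by −0.33, with overlapping scores of 0.014, 0.017 and 0.020 against 0.014, 0.013 and 0.012. Of 17 oligodendrocyte genes Olig2 alone was higher, at 0.119, 0.127 and 0.146 against 0.184, 0.163 and 0.177 (0.42, and 0.04 on the second background). None of 13 endothelial and pericyte genes reached an unadjusted p under 0.05 (limma), and Vtn and Esam, with the smallest p at 0.02 or more, changed by −0.02 and −0.08.

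Neuronal genes were read in 5 lists, where 2.47% of all genes were higher and 1.92% lower at an unadjusted p under 0.05 (limma). Of 38 glutamatergic synapse genes none reached an unadjusted p under 0.05 (limma), and Grin1, the obligatory NMDA receptor subunit, stood at 0.045, 0.046 and 0.047 in WT and 0.047, 0.049 and 0.046 in 5xFAD libraries (0.04). Of 34 GABAergic genes 1 was lower, Cck (−0.36), which encodes a peptide of interneurons, and Dlx1, an interneuron transcription factor, had a change of −0.33. Of 35 vesicle release genes 1 was higher, Sv2a, a vesicle glycoprotein, at 0.037 in each WT and 0.040, 0.040 and 0.038 in 5xFAD libraries (0.08). Of 40 voltage-gated channel genes Kcnab1 passed, 2 reached an unadjusted p under 0.05 as higher and none as lower, and the median was 0.02. Of 13 immediate early genes, which neuronal activity induces, 1 was higher, and the median was 0.19. It was 0.0161 without 5xFAD replicate 1, 0.074 without 5xFAD replicate 3 and 0.0786 without WT replicate 2. The higher gene was Egr2, a zinc-finger factor, whose scores of 0.047, 0.080 and 0.030 in WT overlapped with 0.111, 0.067 and 0.138 in 5xFAD libraries (1.03).

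Genes of the splicing machinery, which the series' title concerns, were read in 2 lists, beside the same shares of all genes (2.47% higher and 1.92% lower). Of 37 U1 and core spliceosome genes none reached an unadjusted p under 0.05 (limma), with a median of 0.0021. Snrnp70, which encodes U1-70K itself, had 0.044, 0.046 and 0.045 in WT and 0.045, 0.044 and 0.044 in 5xFAD libraries (−0.02, SE 0.051). Of 44 SR protein, CLK kinase and hnRNP genes 1 was higher, Rbfox2, a neuronal splicing regulator, at 0.006, 0.005 and 0.006 against 0.007 in each 5xFAD library (0.23). Srsf1, an SR protein, overlapped, at 0.183, 0.178 and 0.199 against 0.213, 0.188 and 0.238 (0.18).

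App, the gene of the amyloid precursor protein, was listed at 0 in all 12 libraries. Thy1, whose promoter drives the transgenes, had 0.015, 0.012 and 0.014 against 0.015, 0.017 and 0.016 (0.20, limma adjusted p = 1). A score is a ratio and not a level, so these values do not check for the transgenes' RNA. Of 26 genes of APP processing 1 was lower, Adam17, a protease that can cleave APP at the alpha site, at 0.025, 0.024 and 0.023 against 0.021, 0.018 and 0.019 (−0.29, adjusted p = 0.682). Of 25 Alzheimer risk genes Grn alone was lower and none higher. Over all genes 1.92% were lower and 2.47% higher at that unadjusted p under 0.05 (limma).

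None of 22 unfolded protein response genes, 31 lipid and cholesterol genes or 45 cytosolic ribosomal protein genes reached an unadjusted p under 0.05 (limma), with medians of 0.06, −0.04 and −0.01. Of 42 respiratory chain genes 1 was higher (2.47% of all genes were), Ndufs6 (0.24), a subunit of complex I with scores of 0.003 to 0.005. Apart from Kcnab1, no member of any list passed the adjusted test (limma).

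Gene lengths were not used to choose these genes, while the N40K scores entered the filter and the spread. The median score in N40K libraries was 0.128 for the 212 genes lower at an unadjusted p under 0.05, against 0.0693 for the 215 higher genes and 0.0743 for all genes with a score of 0.02 or more. In GENCODE M21 the median summed intron length was 9772 bases for the lower, 12334 for the higher and 11612 for all such genes (92.9% matched by Ensembl identifier). The 41 genes lower on both backgrounds had a median of 16517 intron bases, and the 18 higher on both had a larger one, 19356 (15 matched). These medians are descriptions with no test.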

How the data were processed

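RNA of mouse cortex was sequenced from poly(A)-selected, stranded libraries with paired reads of 100 bases and DNase digestion, per the labels' protocols. The authors deposited Sd scores with 3 decimals, 1 linear ratio for each gene in each library. The submitters' processing notes name CASAVA, STAR, BWA, bedtools 2.16.1 and the mm9 build. Formula and read depth are not given in the sources used here. The precision of a single score is therefore unknown, and expression was not analysed here. The 12-month table was not used.

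Scores were fitted as log2(score + 0.002) with limma 3.58.1 in R 4.3.3, with 1 term per group over the 12 libraries of 6 months (8 residual degrees of freedom), default eBayes and Benjamini-Hochberg adjustment over all genes. The script was tested on simulated data. Folds include the pseudocount. Alternatives were other pseudocounts, centring, a trend, score filters, fewer libraries and a replicate block. Libraries were not recentred in the reported fit.

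Named genes were those past the threshold without overlap, filled up to 8 a direction with the smallest unadjusted p at a mean score of 0.02 or more without overlap. Then came, per list, up to 3 members past the threshold or else the 2 of smallest p at that score, and App, Thy1 and Snrnp70. A few further genes are not reported here. Predicted genes (2 higher, 1 lower) were passed over. Members, lists and the rule were chosen with earlier results of these data known. Promoters and intron lengths come from GRCm38 references and were joined by gene, not by coordinates.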

Additional observations from a re-analysis of the deposited data

Results flagged for a closer look

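In 3 genes the change with the 5xFAD transgenes differed between the backgrounds by a test of the interaction (limma, adjusted p under 0.05; 0.0191% of 15705 genes). Atp2b2 and Kcnab1 each rose from WT to 5xFAD and stood at 0.002 in every N40K and dTg library, an interaction of −0.415 on the log2 scale. Synpr, a synaptic vesicle protein gene, was listed at 0 in all WT, 5xFAD and N40K libraries and at 0.001 in all 3 dTg libraries, an interaction of 0.585 (adjusted p = 0.0018). All 3 rest on 1 step of the last decimal.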

How the results depend on the processing

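The count of genes past the threshold for 5xFAD minus WT (3) was 0 with a pseudocount of 0.01, with libraries centred on their medians, with genes of score 0.02 or more, with genes whose means differ by more than 0.001, and with genes that vary within WT or 5xFAD (chosen after seeing the data). It was 4 with a pseudocount of 0.001 or a trend, 27 with the compared groups alone (all without spread in either group and under 0.02), 10 without both libraries of highest median (N40K replicate 1 and dTg replicate 2), and 4 to 12 without one replicate (4 without WT replicate 1, 8 without WT replicate 2, 12 without WT replicate 3, and 7, 11 and 5 without 5xFAD replicates 1, 2 and 3). Among genes of 0.02 or more it was 0 in each alternative, at a minimum of 0.05 too, other than 2 without 5xFAD replicate 1 (Cd180 and Ang). For dTg minus N40K (3) it was 0 with the pseudocount of 0.01, centring or the compared groups alone. It was also 0 with genes of score 0.02 or more and with genes whose means differ by more than 0.001. Without one replicate it was 3 to 22, and without both libraries 34. The interaction (3) gave 0 with the pseudocount of 0.01, centring and genes of score 0.02 or more. It also gave 0 with genes whose difference in mean score varied between the backgrounds by more than 0.001. It gave 5 with a trend, 1 to 14 without one replicate and 22 without both libraries. The cause was not tested.

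Same-numbered libraries did not deviate together across genes (correlations from −0.094 to 0.011 for WT and 5xFAD, −0.191 to −0.027 for N40K and dTg). With 3 libraries a group these correlations cannot show whether the labels' numbers mark a pairing. With the replicate block 2 genes passed for 5xFAD minus WT (Cst3 did not, adjusted p = 0.131), 1 for dTg minus N40K and 0 for the interaction, and the difference of library medians stayed at 0.03 (exact sign-flip p = 0.75).

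Signs turned for Vtn (from −0.0566 to 0.0293 without one replicate, the latter without WT replicate 3, and 0.0045 without 5xFAD replicate 1) and Nlgn2 (−0.226 to 0.0462, the latter without 5xFAD replicate 3), and, for dTg minus N40K, for Rcn1 (−0.0451 to 0.0864, below 0 without N40K replicate 2 and without dTg replicate 2). The difference of library medians ranged from 0.0082 to 0.06 without one replicate. Same-sign shares on the second background ranged from 54.8% to 66% for higher and 56.8% to 72.3% for lower genes. Rounding to 0.001 and 3 libraries a group limit what could be detected.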

Other observations

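In 6 of the 9640 genes with a score of 0.02 or more the libraries were separated on both backgrounds in opposite directions. Each had an unadjusted p under 0.05 on both (limma). By the same rule 41 genes were lower and 18 higher on both. The limit of 1 spread per gene for all groups holds here too. Besides Gla and 2 predicted genes, the 6 were Acta1, Cbln2 and Cyb5r1, chosen after their values were seen. Acta1, the skeletal muscle actin gene, had 0.434, 0.428 and 0.482 in WT and 0.386, 0.387 and 0.386 in 5xFAD libraries (−0.21), but 0.428, 0.429 and 0.424 in N40K and 0.439, 0.520 and 0.499 in dTg libraries (0.18). Cbln2, a secreted organiser of synapses, changed by −0.34 and 0.29, and Cyb5r1, a cytochrome b5 reductase, by −0.18 and 0.10. None of the 6 passed the adjusted interaction test (limma, adjusted p = 1 for each of the 4 named genes).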
